A study of Mus musculus with 39 samples.

Results

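The comparison of fertilized 2-cell embryos with unfertilized oocytes rested on 13 of the 39 arrays of the series, 7 of metaphase II oocytes (OC) and 6 of 2-cell embryos produced by in vitro fertilization (IVF), and was chosen by these group labels alone. Every oocyte and embryo was labelled (B6xDBA/2)F1, the cross of C57BL/6 and DBA/2 also called BDF1, and the oocytes came from superovulated females of 8 to 10 weeks. Neither group had been treated, and the IVF embryos had been cultured for 24 h. Each array held RNA from 10 pooled oocytes or 10 pooled embryos, which had gone through 2 rounds of linear amplification and carried Cy3, so an array is a mean over embryos of both sexes and of any difference in stage between them. The series contains no 1-cell embryo, and a transcript that rose and fell again within the 24 h would not be seen here. The labels do not say that arrays of a group came from separate females or days, so p-values measure only the spread between these samples.

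A growing mouse oocyte stores messenger RNA and then stops transcription, and the metaphase II oocyte lives on that store. After fertilization the store is removed in steps, while the embryonic genome is transcribed weakly at the 1-cell stage and strongly at the 2-cell stage. This change of hands is the maternal-to-zygotic transition. The comparison of OC with IVF asks which stored transcripts had fallen and which transcripts had appeared by the 2-cell stage. The arrays do not tell stored from newly made molecules of a transcript, so the origin of a rise was not tested. In pooled samples, fewer molecules per cell and fewer cells that carry a transcript cannot be told apart.

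The promoters of the genes that stand at both ends of the comparison are shown because their start-site sequence is what the embryonic genome offers for transcription. They are the 3 appeared genes with the largest bound and the 3 genes with the largest fall that had a promoter from RefSeq (GRCm38.p6), without *Mos*, which had no entry, and *Brd8*, whose promoter is not shown here. Each run covers 250 bases before and 50 after the annotated start, 5′ to 3′ on the strand of the gene. Capitals mark matches on either strand to the letters CCAAT (bound by NF-Y), GGATTA (OTX2 and other paired-like homeodomain factors), AGGTCA (NR5A2 and other nuclear receptors), TATAAA (the TATA box) and CACGTG (the E-box of USF and MYC), and matches of different motifs were allowed to overlap. *Ddit4l* lay at chr3:137623422-137623721 (plus strand), *Guca1a* lay at chr17:47400557-47400856 (minus strand), *Lpar6* lay at chr14:73237641-73237940 (plus strand) among the appeared genes. *Pxdn* lay at chr12:29937786-29938085 (plus strand), *Aph1c* lay at chr9:66834657-66834956 (minus strand), *Gabrb2* lay at chr11:42420190-42420489 (plus strand) among the fallen genes, the last being the first of 3 annotated starts.
Ddit4l: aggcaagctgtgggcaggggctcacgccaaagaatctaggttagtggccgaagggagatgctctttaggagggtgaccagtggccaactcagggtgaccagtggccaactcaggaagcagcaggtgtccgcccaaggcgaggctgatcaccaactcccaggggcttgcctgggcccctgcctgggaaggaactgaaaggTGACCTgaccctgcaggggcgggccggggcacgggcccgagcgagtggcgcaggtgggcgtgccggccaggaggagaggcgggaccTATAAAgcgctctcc
Guca1a: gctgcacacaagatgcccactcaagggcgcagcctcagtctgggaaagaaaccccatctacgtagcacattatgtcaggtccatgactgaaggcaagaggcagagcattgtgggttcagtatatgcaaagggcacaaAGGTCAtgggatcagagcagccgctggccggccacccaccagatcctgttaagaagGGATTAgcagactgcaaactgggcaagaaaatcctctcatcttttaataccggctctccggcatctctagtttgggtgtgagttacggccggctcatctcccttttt
Lpar6: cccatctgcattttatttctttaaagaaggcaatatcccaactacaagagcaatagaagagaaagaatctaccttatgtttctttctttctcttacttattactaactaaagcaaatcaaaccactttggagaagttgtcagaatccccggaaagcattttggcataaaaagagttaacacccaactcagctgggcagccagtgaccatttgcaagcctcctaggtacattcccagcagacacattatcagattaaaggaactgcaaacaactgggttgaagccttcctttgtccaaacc
Pxdn: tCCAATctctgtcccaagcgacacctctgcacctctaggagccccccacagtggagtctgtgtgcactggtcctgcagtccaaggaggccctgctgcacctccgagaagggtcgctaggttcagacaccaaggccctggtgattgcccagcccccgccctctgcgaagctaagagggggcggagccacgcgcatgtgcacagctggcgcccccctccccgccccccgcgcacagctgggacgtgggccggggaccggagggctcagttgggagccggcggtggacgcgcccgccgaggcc
Aph1c: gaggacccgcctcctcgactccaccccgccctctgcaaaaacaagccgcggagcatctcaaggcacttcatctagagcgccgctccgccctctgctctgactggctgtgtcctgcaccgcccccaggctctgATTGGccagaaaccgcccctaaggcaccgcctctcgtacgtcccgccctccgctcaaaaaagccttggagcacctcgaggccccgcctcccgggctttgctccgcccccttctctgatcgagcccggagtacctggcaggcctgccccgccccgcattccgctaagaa
Gabrb2: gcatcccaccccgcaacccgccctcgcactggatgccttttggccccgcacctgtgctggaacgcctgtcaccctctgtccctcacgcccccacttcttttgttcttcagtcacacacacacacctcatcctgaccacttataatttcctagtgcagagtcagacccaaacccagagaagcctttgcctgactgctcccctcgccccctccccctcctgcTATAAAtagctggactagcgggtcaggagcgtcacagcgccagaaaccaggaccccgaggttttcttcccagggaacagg

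The promoter window of *Ddit4l* held TATAAA and AGGTCA, that of *Guca1a* held GGATTA and AGGTCA, and that of *Lpar6* held none of the 5 motifs. The windows of *Pxdn* and *Aph1c* each held CCAAT, and that of *Gabrb2* held TATAAA. The appeared promoters printed here had 14, 8 and 1 CG pairs, and the fallen ones 21, 24 and 11, in the order given. Over whole classes, AGGTCA was present in 18.2% of the 779 promoters of appeared genes, 13.5% of the 4781 of all risen genes, 12.8% of the 6686 of fallen genes and 14.0% of the 18287 of all genes tested (16.3% of all 32851 promoters given). TATAAA was in 11.8% of the promoters of appeared genes, 8.97% of all risen, 8.48% of fallen and 11.1% of tested genes (13.6% of all given). CCAAT was in 39.5%, 39.3%, 37.4% and 37.6% of appeared, all risen, fallen and tested genes' promoters (37.4% of all given). In the same order GGATTA was in 7.57%, 6.88%, 5.31% and 6.26% (7.06%), and CACGTG in 7.70%, 10.1%, 9.60% and 8.59% (7.15%). The median ratio of observed to expected CG pairs was 0.48 for appeared, 0.70 for all risen and 0.75 for fallen genes. Over all genes tested it was 0.64. The median GC content was 56.0%, 59%, 60.7% and 58.0% in the same order. The appeared genes are part of the risen genes, and differences between these medians were not tested. These shares are descriptions of the windows, and a match is not a site of binding.

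OC and IVF arrays differed in how much of the array they lit. The share of probes marked well above background by the scanner software ran from 48.6 to 59.9% in OC (median 57.5%) and from 69.6 to 76.3% in IVF (median 73.2%), with no overlap (difference 16.7 percentage points, exact permutation test, two-sided, p = 0.00117, 7 against 6 arrays). The 75th percentile of the intensity was 279 to 527 units on the OC arrays and 1029 to 1406 on the IVF arrays (exact permutation test, two-sided, p = 0.00117, the same arrangement of the arrays). Every level below is the log2 intensity relative to this percentile of its own array, so that 0 stands for a probe as bright as the percentile and a difference of 1 stands for 2-fold. On this scale the median difference over all 39544 probes tested was −0.87. The 3857 probes not well above background on any of the 13 arrays had a median of −1.75, and 3046 of them passed the test as lower in IVF and 0 as higher. Over all probes tested, 16880 (42.7%) passed as lower and 9232 (23.3%) as higher. For this reason a probe was counted as fallen only if it was well above background on all 7 OC arrays, and as risen only if it was so on all 6 IVF arrays. Both groups were present on each of 4 scan days, but on only 2 of the 8 slides that held their arrays. Of the risen probes 97.3%, and of the fallen 98.4%, had the same sign on each of the 4 days, and 98.5% and 99.5% on both slides. These probes were called on the same arrays, so this agreement follows largely from the selection and is no independent check on days or slides. OC replicate 6 stood furthest from its group, with 387 of 17411 probes more than 4-fold from the group median, against 18 to 293 in the other OC arrays. Without it 9041 probes rose, 10473 fell, 1919 appeared and 23 were lost.

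By the 2-cell stage 10470 probes had fallen, which is 26.5% of the 39544 tested, and 9064 had risen, which is 22.9% (limma, Benjamini-Hochberg adjusted p under 0.01). Among the risen, 1965 probes (4.97% of those tested) appeared, that is, no OC array had them well above background. Among the fallen, 23 (0.0582%) were lost, that is, no IVF array had them well above background. The lowest level marked well above background was −5.82 to −4.38 on the OC arrays and −7.46 to −6.52 on the IVF arrays. A weak transcript could thus be measured more readily in IVF, and the counts of appeared and lost probes rest on unlike detection limits. Of the fallen probes, 10023 were still well above background on all 6 IVF arrays. Among the 17411 probes well above background on all 13 arrays, the median difference was −1.14, and 10023 fell and 3572 rose. The middle of their distribution ran from −2.34 at the lower quartile to 0.38 at the upper one. Of all 19534 called probes (49.4% of those tested), 16224 had groups that did not overlap, and groups did not overlap for 51.8% of all probes tested. Under median centring of the arrays, risen probes made up 36.3% of the calls, against 46.4% here and 51.6% with quantile normalization.

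**Figure D1:**
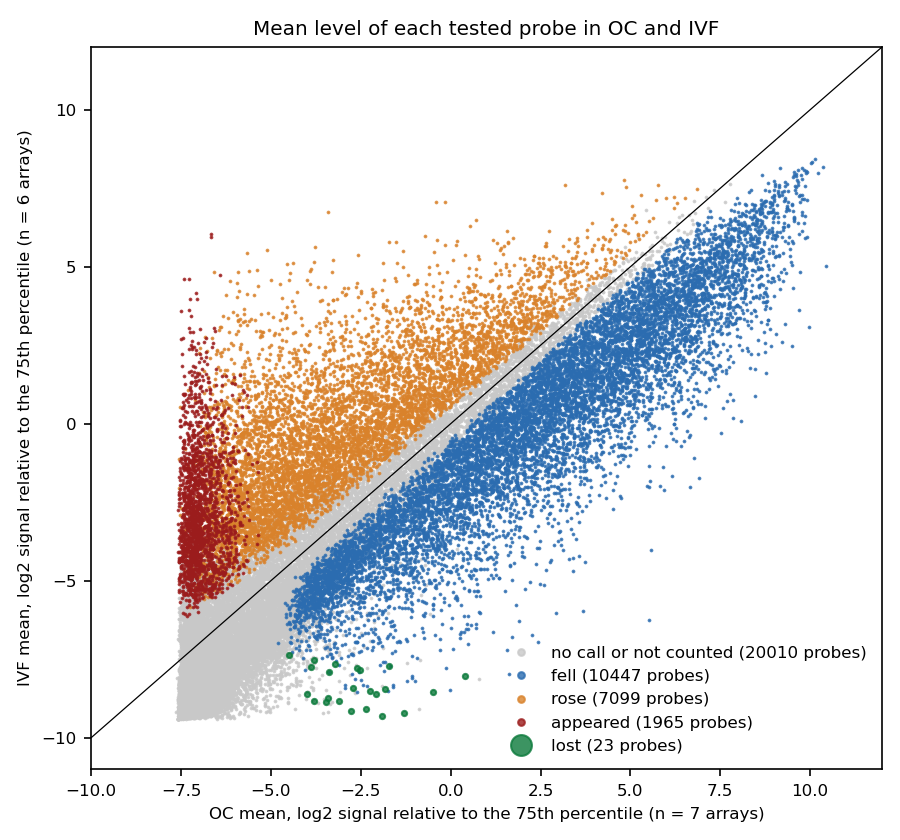
Mean level of each of the 39544 tested probes in OC (horizontal, 7 arrays) and IVF (vertical, 6 arrays), in log2 intensity scaled to the 75th percentile of the array, with the line of equal level. Fallen probes form a broad band below the line up to the brightest OC levels, the 1965 appeared probes form a column at the left edge, and the 23 lost probes lie at the bottom.

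With 1 probe for each of 18590 named genes, the brightest over both groups, 4860 genes (26.1%) rose and 6531 (35.1%) fell, with a median difference of −0.78, and groups did not overlap for 58.4% of genes. Of these, 811 (4.36%) appeared and 7 (0.0377%) were lost. These shares are the background for the gene lists below. On chromosome 11, 92 of 1468 genes appeared (6.27%), on chromosome X 44 of 678 (6.49%) and on chromosome 1 28 of 1077 (2.60%), and the Y chromosome is described with its genes.

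The largest fall of a named gene was that of *Pxdn*, which encodes peroxidasin, an enzyme that cross-links collagen IV. Its level in OC had a lowest value of 4.88, a median of 5.45 and a highest of 6.39, and in IVF −9.55, −5.55 and −3.63. All OC arrays lay above all IVF arrays, and 2 of the IVF arrays did not measure it above background. The difference was −11.77 ± 0.85 (SE; adjusted p = 3.3e-13). *Mos*, the kinase that holds the oocyte in metaphase II as part of cytostatic factor, also fell far and could be measured on every array. Its level was 4.79, 5.70 and 5.79 in OC (lowest, median, highest) and −4.40, −4.08 and −3.34 in IVF, well above background on all 13 arrays. The difference was −9.59 ± 0.54 (SE; adjusted p = 9.1e-16), a 772-fold fall.

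*Furin*, a protease of the secretory pathway, fell 397-fold, from a median level of 6.92 in OC to −1.92 in IVF, with no overlap and a difference of −8.63 ± 0.25 (SE; adjusted p = 2.6e-22). *Aph1c*, a subunit of gamma-secretase, fell by 9.65 on the log2 scale, with medians of 3.55 and −5.82, and 4 of 6 IVF arrays measured it. *Galnt9*, which starts O-linked glycosylation, *Cpa6*, a carboxypeptidase, and *Brd8*, a bromodomain protein of the NuA4 complex, had differences of −8.18, −8.52 and −9.36. For *Gabrb2*, a GABA receptor subunit, the difference was −8.80, and for *Ift57*, a part of the intraflagellar transport complex, it was −8.47. Each of these 5 was measured on all OC arrays and on 1 to 4 of the 6 IVF arrays, so the IVF level is partly noise. Several of these genes have more probes that moved by less. *Brd8* has another probe with a 2.93-fold fall, *Gabrb2* one with a 9.58-fold fall, and *Ift57* 2 with 68.3-fold and 60.4-fold falls. *Tm9sf3*, a membrane protein of the Golgi, fell by 8.67 on 1 probe (median 6.66 in OC, −1.97 in IVF) and by 0.64 on its other probe, with groups that overlapped, which rose by 1.07 with quantile normalization and by 1.12 with normexp.

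Lost messages were rare by this count, which rests on the lower detection limit of the IVF arrays. *Olfr860*, an olfactory receptor gene, was well above background on all 7 OC arrays and on no IVF array, at least 95.8-fold lower in IVF. Its OC levels on this probe ran widely, from −5.39 in replicate 6 to 2.05. The lowest level marked well above background on the array of replicate 6 was −5.82. *Crb1*, a polarity protein, had OC levels from −3.71 to −3.08 and was at least 12.9-fold lower. *Slc6a14*, an amino acid transporter, was at least 28.7-fold lower, but its second probe was well above background on all 13 arrays with a 1.17-fold difference that did not pass the test. *Erbb4*, *Zfhx3*, *Trat1*, *D5Ertd579e*, *Sec31b* and *Amh* (anti-Müllerian hormone) were lower on 1 probe each by at least 20.4, 19.6, 23.4, 37.9, 9.64 and 9.15-fold. The other probe of *D5Ertd579e* was well above background on all 6 IVF arrays and 3 of 7 OC arrays, with a difference of 1.63 that did not pass the test. The other probe of *Trat1* was well above background on 2 IVF arrays and no OC array. *Zfhx3* has 2 other probes that were well above background on all 13 arrays and fell 9.80-fold and 7.71-fold.

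On the other side, *Ddit4l*, an inhibitor of mTOR signalling, had the largest rise. Its OC levels were −7.89, −6.30 and −5.57 (lowest, median, highest), none of them well above background, and its IVF levels were 5.75, 6.05 and 6.32. The IVF level was at least 2508-fold higher (adjusted p = 1.1e-20), and a second probe gave at least 2365-fold. Another probe, measured on 6 of 7 OC arrays, rose 88.5-fold. The bound sets the mean of IVF against, on each OC array, the lowest signal among probes marked well above background or the probe's own signal where that was higher.

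*Guca1a*, a guanylate cyclase activator known from photoreceptors, was at least 924-fold higher, with IVF levels from 4.33 to 4.76. *Lpar6*, a receptor for lysophosphatidic acid, was at least 688-fold higher by 1 probe and 318-fold by the other. *Stk17b*, a kinase of the death-associated protein family, was at least 606-fold higher, with IVF levels from 3.15 to 4.45. *Wdr77*, a partner of the arginine methyltransferase PRMT5, was at least 309-fold higher on its strongest probe and 8.92-fold on its weakest. *Kpna1*, an importin alpha, was at least 293-fold higher, and *Olfr20* and *1600012H06Rik* at least 457-fold and 467-fold. In each of these the 6 IVF arrays lay above all 7 OC arrays.

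4 of the 10 largest rises were of probes that were well above background on 1 or 2 of the 7 OC arrays, so their OC levels are mostly background and the size of the difference is uncertain. *Psat1*, an enzyme of serine synthesis, was measured on 1 OC array and rose by 11.42 ± 0.40 (SE; adjusted p = 1.8e-20) from a median of −7.15 to 4.83. *Cst9*, a cystatin, rose by 10.73, *Gm5662* by 11.10 and *Ifng*, the gene of interferon gamma, by 10.69. *Ifng* had OC levels from −7.75 to −2.97 and IVF levels from 4.16 to 5.13. Its second probe, measured on 1 OC array, had IVF levels from 3.14 to 4.08. The other probe of *Gm5662* was well above background on 6 of 7 OC arrays and rose by 10.13.

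**Figure D2:**
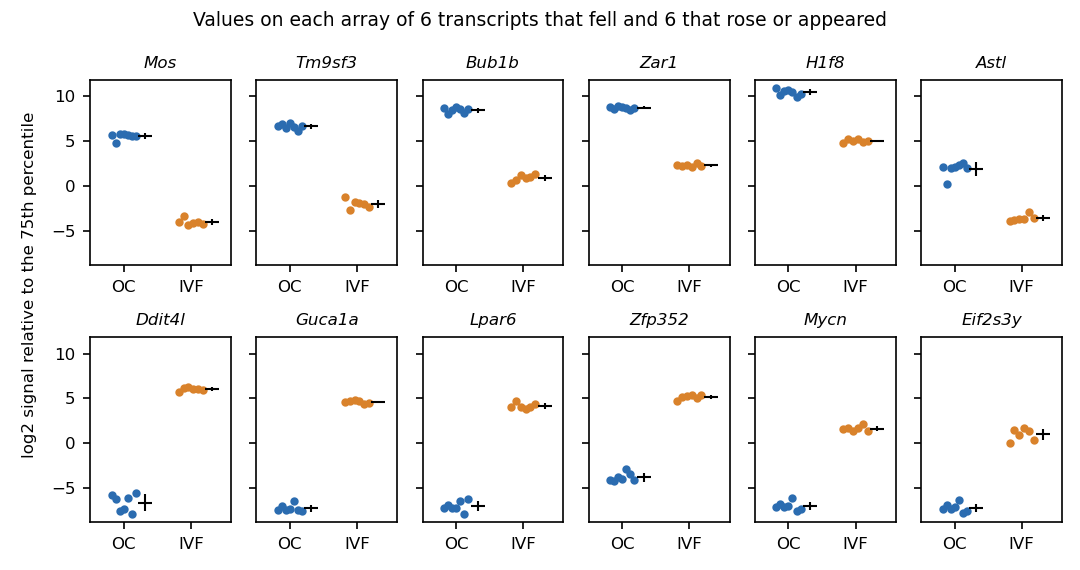
Level on each OC array (7 points) and IVF array (6 points) for 6 fallen and 6 risen or appeared transcripts, as log2 intensity relative to the 75th percentile, with mean and SD as the bar beside each group. In every panel the groups are separate, with *Mos* at −4.40 to −3.34 and *Ddit4l* at 5.75 to 6.32 in IVF.

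Transcripts that define the oocyte fell but could still be measured. All 10 of the oocyte identity markers fell (35.1% of all genes fell), with a median difference of −2.07, but 6 fell and 0 rose with quantile normalization (median −1.06) and 7 fell and 1 rose with normexp. All 10 were well above background on every IVF array. The growth factors of the oocyte were part of this group. *Gdf9* had OC levels of 9.30, 9.91 and 10.17 and IVF levels of 7.0, 7.13 and 7.30, a 6.49-fold fall (−2.70 ± 0.15 SE; adjusted p = 4.2e-16). Its partner *Bmp15* fell 3.91-fold, from 9.48 to 7.38 at the median, and rose by 0.21 with quantile normalization and by 0.18 with normexp, neither at an adjusted p under 0.01. Of the 7 measured factors on the list of oocyte-secreted proteins, 7 fell, with a median of −2.17, against 4 with quantile normalization (median −0.70) and 5 with normexp. The largest falls were of *Kitl* (−4.14), which is mainly known from granulosa cells, and of *Fgf8* (−3.89), a growth factor that the oocyte sends to the cumulus cells. *Oosp1*, which encodes an oocyte-secreted protein, fell 4.51-fold.

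Proteins of the egg coat and of sperm binding behaved unequally. Of 6 members 5 fell and 0 rose, against 4 and 1 with quantile normalization and 4 and 2 with normexp. *Astl*, which encodes ovastacin, the protease that hardens the zona after fertilization, fell 45.7-fold, from OC levels of 0.19, 2.06 and 2.57 to IVF levels of −3.91, −3.73 and −2.97. *Izumo1r* (Juno), the sperm receptor on the egg membrane, fell 28.9-fold. The zona genes fell less, *Zp3* 6.60-fold, *Zp1* 2.39-fold and *Zp2* 1.55-fold. *Zp2* was higher in IVF by 0.45 with quantile normalization, which did not pass the test, and by 0.37 with normexp.

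Among 15 maternal-effect factors, including the subcortical maternal complex, 13 fell and 1 rose, with a median of −2.16, against 8 and 3 with quantile normalization (median −0.68) and 8 and 4 with normexp. *Zar1*, an RNA-binding protein of the oocyte, had OC levels between 8.51 and 8.95 and IVF levels between 2.06 and 2.56. This 87.8-fold fall (−6.46 ± 0.18 SE; adjusted p = 1.3e-22) compares with a 2.85-fold fall of *Nlrp5* (Mater), a core member of the complex. *Trim28*, a corepressor that protects imprints, and *Rnf114*, a ubiquitin ligase, fell 11.7-fold and 10.9-fold. *Npm2*, the chaperone that remodels sperm chromatin, rose by 1.45 ± 0.24 (SE; adjusted p = 5.6e-06).

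Of 9 oocyte transcription factors and the oocyte linker histone, 7 fell and 2 rose. *H1f8* (H1foo), that linker histone, fell 43.4-fold from a median of 10.48 to 4.98. *Sohlh2* and *Nr6a1* fell 28.5-fold and 10.2-fold, and *Figla*, which drives the zona genes, had a difference of −1.25 that passed at an adjusted p of 9.8e-03, with groups that overlapped, and did not pass without 9 of the 13 arrays, each left out in turn. *Taf7l*, a paralogue of a TFIID subunit, appeared, at least 27.3-fold higher. *Taf4b*, another TFIID paralogue, rose by 1.93 with groups that overlapped.

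The transcripts of meiotic arrest and resumption had 18 of 30 members that fell and 6 that rose (median −1.79). Behind *Mos*, the spindle checkpoint kinase *Bub1b* fell 192-fold, with OC levels of 8.00 to 8.80 and IVF levels of 0.31 to 1.28, and *Aurkc*, the Aurora kinase of meiosis, fell 34.2-fold. Their opposite was *Cdk1*, the kinase of M phase, which rose 63.3-fold from OC levels of −4.77, −3.20 and −2.32 to IVF levels of 2.13, 2.67 and 2.93. *Wee1*, which inhibits *Cdk1*, rose by 3.0, and *Ccnb3*, a cyclin B, by 2.78. With quantile normalization 11 members rose and 11 fell.

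Factors that handle stored messages moved in both directions. Of 27 factors of maternal mRNA decay, 20 fell and 5 rose (median −1.76), and 9 fell and 7 rose with quantile normalization, where the median of −0.25 was that of all genes. *Dcp1a*, a decapping factor, fell 37.0-fold and *Cnot11*, a subunit of the CCR4-NOT deadenylase, 33.5-fold. *Cnot3* fell 10.1-fold. *Ago2*, the slicer of RNA interference, rose 10.8-fold, *Tut4*, which adds uridine to messages, 4.08-fold with groups that overlapped, and *Cnot6*, a deadenylase, 3.31-fold. Of 25 factors that control the translation of stored messages 14 fell and 7 rose, but 14 rose and 7 fell with quantile normalization, so this list has no stable direction. *Patl2*, *Cpeb3* and *Lsm14b* fell 37.9-fold, 26.7-fold and 19.8-fold. *Pabpc1*, the poly(A)-binding protein of somatic cells, rose 21.8-fold, from OC levels of −1.68, 1.31 and 3.1 to IVF levels of 5.57, 5.75 and 5.89, and *Cpeb4* rose 11.6-fold. For *Ddx6*, a helicase of P-bodies, 5 of 7 OC arrays measured it, its groups overlapped, and its rise of 3.43 did not pass the test when OC and IVF were fitted without the other groups.

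Most transcripts known from the 2-cell stage rose, but many could already be measured in OC. Of 18 measured members 16 rose (26.1% of all genes rose) and 2 fell, with a median of 4.02, and 17 rose and 0 fell with quantile normalization. On all OC arrays 10 of the 18 were well above background, and 2 were so on none, while all 18 were so on all IVF arrays. Their summed linear level, in units of the percentile used for scaling, was 480 to 768 in OC (median 603). In IVF it was 821 to 1079 (median 1053). *Zfp352*, a retrogene zinc finger protein, had OC levels of −4.28, −3.97 and −2.90 and IVF levels of 4.70, 5.20 and 5.35. It rose by 8.95 on the log2 scale (± 0.23 SE; adjusted p = 2.6e-23) and was well above background on all 13 arrays. *Pramel6* appeared and was at least 245-fold higher, with IVF levels from 2.06 to 3.17. The deubiquitinase gene *Usp17la* rose by 9.76, with 1 of 7 OC arrays above background. *Zscan4c*, the marker of the 2-cell burst of transcription, appeared on 1 probe, at least 314-fold higher, while its other probe was measured on all OC arrays and rose 12.2-fold. *Zscan4c*, *Usp17la* and *Tcstv1* belong to families of near-identical copies, so a probe may read several of them. *Tcstv1* and *Tcstv3* rose 3.44-fold and 4.33-fold from levels already present in every OC array. *Usp17lc* appeared, at least 2.67-fold higher, with 1 IVF array left out as an outlier spot. *Tcl1*, a coactivator of AKT, went the other way with a difference of −1.74, and it rose by 0.49 with quantile normalization and by 0.45 with normexp.

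Among 38 early embryonic and lineage transcription factors 17 rose, 5 of them from below background, and 11 fell (15 and 14 under median centring). *Mycn* appeared, at least 117-fold higher, with IVF levels of 1.30, 1.59 and 2.15. *Dppa4*, a chromatin factor of pluripotent cells, rose by 8.57 and *Klf5*, a factor of the blastocyst lineages, by 7.54. *Spic*, an ETS factor that the study went on to inject as mRNA and that is named here for that reason, had OC levels of −1.61, −0.85 and 0.74 and IVF levels of 3.51, 4.03 and 4.23, a 26.1-fold rise (4.71 ± 0.46 SE; adjusted p = 2.2e-10). *Nfya*, *Tfap2c* and *Obox1* fell on their brightest probes, 29.1-fold, 8.07-fold and 7.77-fold.

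Genes of the ribosome and of its assembly mostly rose. Of 79 cytosolic ribosomal protein genes, 56 rose and 10 fell, with a median of 1.89, and of 92 genes of RNA polymerase I and ribosome biogenesis, 53 rose and 24 fell, with a median of 1.28. Both kept more rises than falls under quantile normalization (69 and 3, 63 and 16), median centring (50 and 16, 45 and 27) and normexp (69 and 2, 61 and 16). *Nop2*, a methyltransferase of 28S rRNA, rose by 8.77 ± 0.30 (SE; adjusted p = 1.2e-20) from OC levels of −7.21 to −4.55 to IVF levels of 3.1 to 3.94. *Nop56*, a core protein of box C/D snoRNPs, rose 183-fold on arrays that all measured it, and *Nop16* rose by 7.93. *Npm1*, nucleophosmin, and *Brix1*, by contrast, fell 9.68-fold and 12.4-fold. *Rps9*, *Rpl10a* and *Rpl12* rose 49.3-fold, 44.4-fold and 41.6-fold, and *Rpl27a* fell 6.13-fold. *Rpl32* and *Rpl34* had differences of −1.57 and −1.42, and were higher by 0.23 and 0.14 with quantile normalization and by 0.31 and 0.22 with normexp. Ribosomal protein genes have many processed pseudogenes, which a probe may also read.

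RNA polymerase II with the general transcription factors had 27 falls and 12 rises among 44 genes, but 12 falls and 20 rises with quantile normalization. Individual members moved far. *Gtf2e1*, a subunit of TFIIE, rose by 9.38 with 1 of 7 OC arrays above background, and *Gtf2f1*, of TFIIF, rose 74.7-fold from levels of −1.18 to 0.32 to levels of 5.58 to 6.13. *Polr2b*, the second largest subunit of the polymerase, rose 9.78-fold. *Gtf2b* (TFIIB), the histone chaperone *Supt16* and *Taf8* fell 23.0-fold, 22.6-fold and 16.9-fold.

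The spliceosome had 46 falls and 13 rises among 70 genes (29 and 29 with quantile normalization). *Sf3a1* and *Sf3b1*, parts of the U2 particle, fell 63.3-fold and 18.9-fold, and *Prpf6*, of the tri-snRNP, 41.8-fold. *Cdc5l* rose 249-fold, from OC levels of −4.46 to −1.88 to IVF levels of 4.84 to 5.62, and *Snrpd2* and *Prpf4* rose 27.6-fold and 23.6-fold. Of 37 proteasome subunits 22 fell and 10 rose (12 and 15 with quantile normalization), with *Psmd9* and *Psma2* down 22.8-fold and 20.1-fold and *Psmc1* up 17.3-fold. Of 75 nuclear-encoded respiratory chain genes 32 fell and 23 rose (17 and 34 with quantile normalization). *Sdha* and *Uqcrc2* fell 16.9-fold and 13.8-fold, *Cox7b* rose 17.5-fold, and *Ndufs8* appeared, at least 26.7-fold higher. In these complexes, members that work in 1 particle thus had differences of opposite sign.

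Of 31 heat shock proteins and chaperonins 13 rose and 14 fell (19 and 3 with quantile normalization). *Bag3*, a co-chaperone of HSP70, rose by 10.41 ± 0.51 (SE; adjusted p = 4.5e-17), with 2 of 7 OC arrays above background and IVF levels from 4.33 to 4.61. *Hspa1a*, the inducible HSP70 known as an early product of the embryonic genome, rose 32.7-fold from −1.15 to 3.71 at the median, and its probe may also read its near-identical neighbour *Hspa1b*. *Cct6a* rose by 5.30, with 2 of 7 OC arrays above background, while *Cct8*, another subunit of the same chaperonin, fell 7.47-fold. *Hsp90ab1* and *Hspa9* fell 10.1-fold and 8.30-fold.

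Of 18 genes of DNA methylation and demethylation 5 rose and 5 fell (6 and 8 with quantile normalization). *Dnmt1*, the maintenance methyltransferase, and its partner *Uhrf1* fell 10.8-fold and 15.0-fold. *Tet3*, the oxygenase that acts on the zygotic genome, fell 32.3-fold on its brightest probe. *Gadd45b* rose 29.2-fold, *Mbd1* 13.1-fold, and *Apobec1* appeared, at least 3.44-fold higher.

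Of 44 histone modifiers 24 fell and 15 rose, with more falls than rises under each scaling. *Ehmt1*, a methyltransferase of histone H3 lysine 9, fell 39.1-fold, the acetyltransferase *Hat1* 36.1-fold and the demethylase *Kdm1a* (LSD1) 21.0-fold. *Suv39h1*, another methyltransferase of the same lysine, rose by 6.90 ± 0.26 (SE; adjusted p = 7.3e-20), with 2 of 7 OC arrays above background. *Kdm4c*, a demethylase of that lysine, appeared, at least 26.7-fold higher, and the deacetylase *Hdac5* rose 36.0-fold.

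Of 39 genes of the cell cycle 25 fell and 9 rose (14 and 16 with quantile normalization). *Cdc7*, *Orc4* and *Mcm2*, which license and fire replication origins, fell 16.6-fold, 11.4-fold and 9.65-fold, from OC levels of 5.96 to 7.16 in the case of *Cdc7*. The kinase inhibitors *Cdkn1a* (p21) and *Cdkn1c* (p57) rose 69.3-fold and 16.7-fold, and *Cdk2* 15.7-fold.

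**Figure D3:**
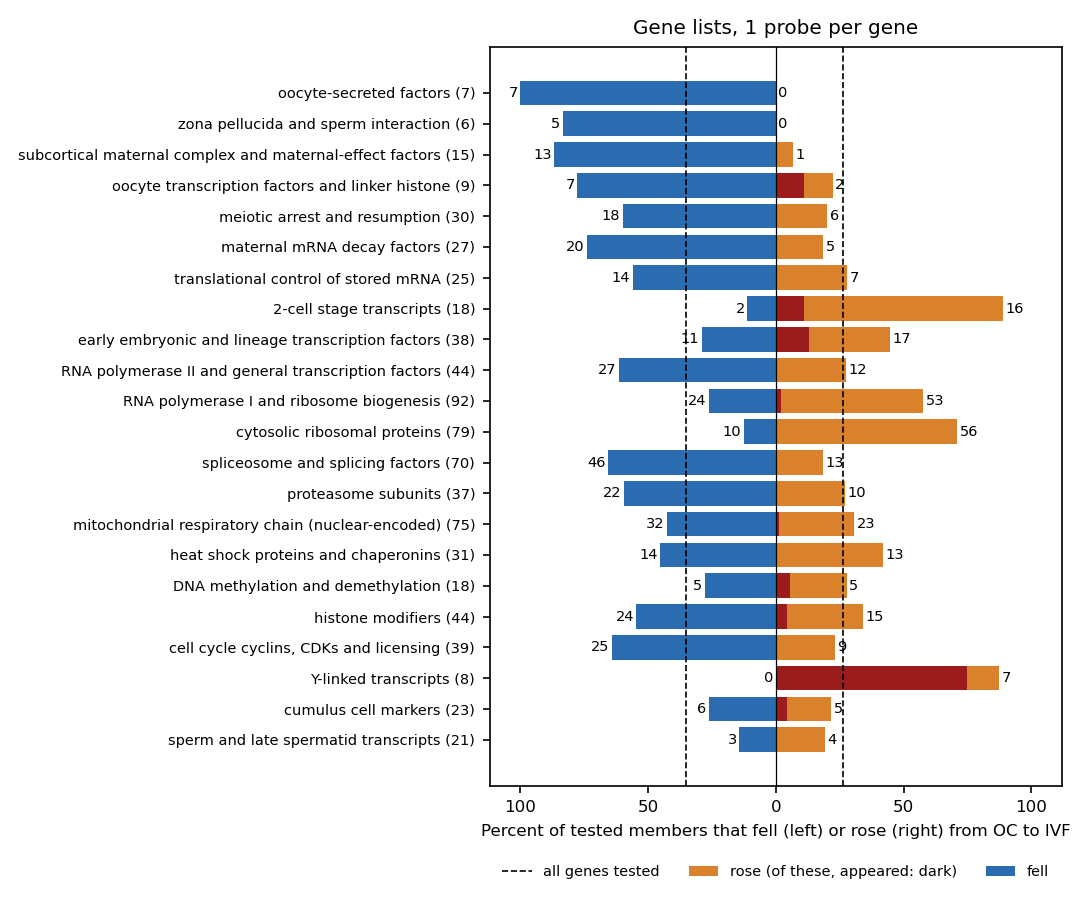
Share of the tested members of each gene list that rose (right) or fell (left) from OC to IVF, with the number of genes at the end of each bar, the number tested in brackets and the shares over all genes tested (26.1% and 35.1%) as broken lines. Oocyte lists lie at the left, while 2-cell, ribosomal protein, ribosome biogenesis and Y-linked genes lie at the right. Quantile normalization turned the balance of 6 lists, translational control, RNA polymerase II, proteasome, respiratory chain, heat shock and cell cycle.

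Oocytes have no Y, so Y-linked transcripts gave a check on the rises, limited by probes that also gave signal in female cells. Of 8 Y-linked genes measured, 7 rose (6 appeared), and 7 rose also with quantile normalization, median centring and normexp. Their median difference was 4.42, but 1.67 with normexp. Of the 8, 7 were well above background on no OC array and 0 on all of them. On the 4 arrays of cumulus cells, which also come from females, 1 was so throughout and 6 nowhere. Whether these probes read sequence outside the Y was not tested. *Eif2s3y*, a translation initiation factor gene, had OC levels of −7.83, −7.32 and −6.39, none of them well above background, and IVF levels of 0.03, 1.17 and 1.67, at least 74.2-fold higher. *Usp9y* was at least 6.52-fold higher. *Zfy2* was well above background on 4 of 7 OC arrays, with a highest OC level of −3.53, and rose to levels of −0.89 to 1.33. The summed linear level of the 8 genes, in units of the 75th percentile, was 0.07 to 0.18 on the OC arrays and 2.04 to 7.99 on the IVF arrays. Of the 13 Y-linked genes tested on the whole array 9 rose (69.2%).

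Markers of other cells were measured beside these results, and their part in them was not tested. Of 23 cumulus cell markers 5 rose and 6 fell. Their summed level was 173 to 474 units of the 75th percentile in OC, 12.3 to 17.8 in IVF and 708 to 937 on 4 arrays of cumulus cells. The OC sum was carried by *Cyp19a1* (aromatase). Without it, taken out after its level was seen, the sum of the other 22 was 3.05 to 7.36 in OC, 7.75 to 10.9 in IVF and 703 to 935 in cumulus cells. *Cyp19a1* had OC levels of 7.40 to 8.87 and a mean of 8.11, against 2.36 in IVF and 1.13 in cumulus cells, and it fell 53.6-fold. *Cyp11a1* and *Hsd3b1*, enzymes of steroid synthesis, had mean levels of 6.92 and 7.77 in cumulus cells. Their means were −4.08 and −3.43 in OC and −4.87 and −6.34 in IVF. In OC they were well above background on 5 and 6 of 7 arrays. Of the 22 markers without *Cyp19a1*, 6 were well above background on all OC arrays and 6 on none. On all IVF arrays 12 were so, and on all cumulus arrays 19. *Has2*, the hyaluronan synthase of the expanded cumulus, had a mean of 0.58 in OC and 0.87 in cumulus cells and fell 20.4-fold. *Amhr2*, the receptor of anti-Müllerian hormone, appeared in IVF, at least 232-fold higher, and *Vim* rose by 4.61. The cumulus arrays had been processed with a later version of the scanner software, so their levels are given side by side only. Of 21 sperm and late spermatid transcripts 4 rose (19.0%), 3 fell (14.3%) and 14 did neither. Over all genes 26.1% rose and 35.1% fell. The summed level of the 21 was 2.52 to 4.98 in OC and 4.21 to 8.01 in IVF. Among the 4 that rose, *Pgk2*, a kinase of sperm glycolysis, rose by 6.53 with 4 of 7 OC arrays above background. *Tekt1* rose by 2.82 and the protamine gene *Prm1* by 2.53. The 3 that fell are not described here.

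Probes of 1 gene did not always move together. Of 6657 genes with several tested probes, 845 had all of them risen, 1191 had all of them fallen and 813 (12.2%) had at least 1 probe risen and another fallen. In 659 of these the risen and the fallen probe each changed at least 2-fold. *Cpsf6*, a cleavage factor of 3′ end processing that selects poly(A) sites, was the widest among the named genes. On 1 probe it was well above background on none of the 7 OC arrays and was at least 291-fold higher in IVF, with levels from 2.71 to 3.23. On another it fell 28.8-fold, from OC levels of 2.70 to 4.35 to IVF levels of −1.36 to −0.79, and on the third it rose 1.86-fold.

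*Nfya*, a subunit of the CCAAT-binding factor, fell by 4.86 on 1 probe and rose by 2.60 on the other, and both were well above background on all 13 arrays. *Utp6*, a processing factor of 18S rRNA, fell by 3.84 and rose by 5.49, and *Fgf8* fell by 3.89 and rose by 2.97. *Eif1ad*, a protein with an eIF1A-like domain, had differences of −1.04 and 6.99, and the proteasome subunit gene *Psmd14* of −1.01 and 3.28. The 3 probes of *Tet3* had differences of −5.01, −2.35 and 2.93. The position of these probes in their transcripts was not examined.

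**Figure D4:**
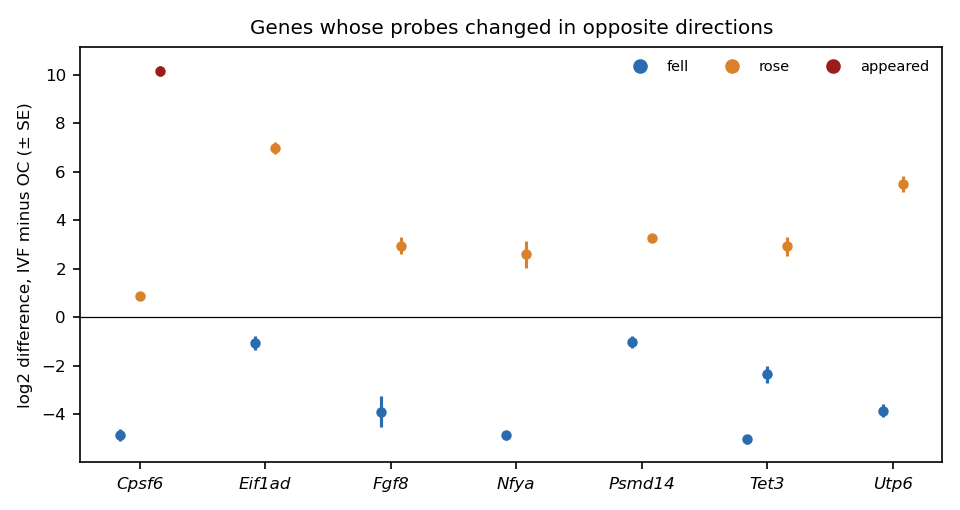
Log2 difference of IVF minus OC (± SE from limma) for every tested probe of 7 genes whose probes changed in opposite directions, 1 point per probe. The probes of *Cpsf6* span from −4.85 to 10.17 and those of *Utp6* from −3.84 to 5.49.

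Levels varied more between the OC arrays than between the IVF arrays, which were also brighter, and the source of this spread was not tested. Over the 17411 probes well above background on all 13 arrays, the median SD was 0.44 in OC (n = 7) and 0.28 in IVF (n = 6). *Mapk8ip1*, a scaffold of JNK signalling, had the widest range in OC, with levels of 3.56, 3.35, 2.19, 0.14, −3.53, −4.93 and 2.85 in replicates 1 to 7, and IVF levels from −6.01 to −4.24. *Sbpl*, *Prss32* and *Tbc1d2* were low in the same OC replicates, 5 and 6. Of these 4 genes, *Mapk8ip1* and *Sbpl* fell with groups that overlapped, *Prss32* fell without overlap, and *Tbc1d2* did not pass the test (1.86 ± 0.86 SE; adjusted p = 0.052), its IVF levels of 1.94 to 2.34 lying beside those of the brighter oocyte samples. *Dicer1*, the enzyme that makes small RNAs, followed another pattern, with levels of −5.02, −0.61 and 2.97 in OC (lowest, median, highest) and −2.28 to −1.53 in IVF on this probe, and rose 2.25-fold on its other probe.

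In IVF the widest range was that of *Usf2*, an E-box factor, with OC levels of 2.42 to 3.73 and IVF levels of −6.03, −4.49 and 1.17. IVF replicates 1 and 2 were the high ones, and the same 2 replicates were the highest for *Mageb5* and *Ncf1*. *Usf2*, *Mageb5* and *Ncf1* fell 104-fold, 140-fold and 109-fold, and the other probe of *Usf2* rose 2.01-fold with groups that overlapped. *Fahd2a* fell 11.3-fold, and *Bex4* had a difference of −0.35 ± 0.52 (SE; adjusted p = 0.54).

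**Figure D5:**
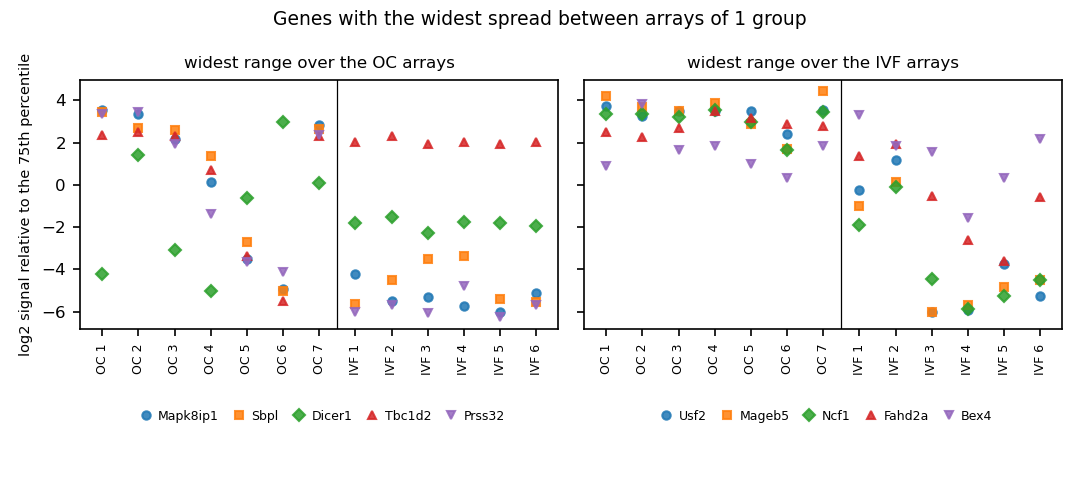
Level on each array, as log2 intensity relative to the 75th percentile, of the 5 genes with the widest range over OC (left) and of the 5 with the widest range over IVF (right). OC replicates 5 and 6 lie low for *Mapk8ip1*, *Sbpl*, *Tbc1d2* and *Prss32*, and IVF replicates 1 and 2 lie high for *Usf2*, *Mageb5* and *Ncf1*.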

How the data were processed

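Single-colour (Cy3) mouse Agilent arrays were read from the scanner files that the authors deposited. The deposited intensity is the processed signal of Feature Extraction, background-subtracted, in version 9.5.3.1 for OC and IVF per the file headers, and the deposited outlier and well above background flags come from the same software. The authors' value table, deposited in log2 units, was used as an alternative. Its columns correlated at 0.9999 or more with the log2 intensities after centring, and its column medians ran from −0.10 to 1.08. Here control spots and outlier spots were left out, the 75th percentile of each array was subtracted on the log2 scale and spots of a probe were averaged. Probes were tested if their signal was at least 10 units on at least 1 array of IVF or cloned embryos (39544 of 41174). Limma 3.58.1 in R 4.3.3 (lmFit and eBayes) was fitted to 5 groups together, OC, IVF, cloned 2-cell embryos with and without trichostatin A, and cumulus cells, which share 1 estimate of the spread, with Benjamini-Hochberg adjustment at 0.01. Of the probes, 27829 had 1 RefSeq gene, 32 several and 13313 none, and the unnamed ones were counted but not described. The primer of the linear amplification and the place of each probe in its transcript are not given in the sources used here.

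The members, gene lists and tests were chosen with earlier results of these data known, so no list count is independent evidence. Named genes are the 10 largest rises and falls without overlap, the 10 largest bounds of appeared and of lost genes, the 3 largest rises and falls in each list with members whose probes disagree, the cell type markers, and the 5 genes with the widest range in each group. *Spic* was named outside that rule. 1 gene that the rule names is not reported here. Alternatives were quantile normalization, median centring, normexp with an offset of 50, other filters, thresholds, tests and sample sets, blocks for slide, scan day and replicate number, and leaving out each array. On simulated data with 200 of 39544 probes changed, fitted without the other groups, 49% of changes of 2 log2 units and 7% of changes of 1 were recovered. Far more probes passed in the real data, and the adjusted threshold depends on that share. These recoveries therefore do not give the share of real changes that was missed. The precision of a value is limited by 7 and 6 arrays. No column of another series was present. Python 3.11.15, pandas 2.3.3, scipy 1.17.1 and matplotlib 3.10.9 were used for tables and figures.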

Additional observations from a re-analysis of the deposited data

Results flagged for a closer look

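Of 371 groups of values of the named probes (a probe in OC or in IVF), 32 had 1 array further from the rest than the 95% limit of Dixon's test, and chance flags about 1 in 20. Levels are log2 intensity relative to the 75th percentile. OC replicate 1 stood apart from its group with levels of −7.48 for *Wee1*, −7.26 for *Ccnb3*, −4.46 for *Cdc5l*, 8.00 for *Hspa9*, 0.56 for *Hspa1a* and −2.09 for *Tekt1*. OC replicate 2 stood apart from its group with levels of 4.79 for *Mos*, −3.33 for *Psat1*, 0.19 for *Astl*, 3.88 for *Eif1ad*, −6.93 for *Eif1ad* and −3.25 for *Nfya*. OC replicate 3 stood apart from its group with levels of −0.42 for *Zfhx3* and 3.99 for *Dnmt1*. OC replicate 4 stood apart from its group with a level of −1.26 for *Psmd14*. OC replicate 6 stood apart from its group with levels of 8.83 for *Bmp15*, 9.07 for *Rnf114*, 2.42 for *Usf2* and 1.66 for *Ncf1*. OC replicate 7 stood apart from its group with a level of −3.88 for *Gtf2e1*. IVF replicate 1 stood apart from its group with levels of 4.35 for *Cst9*, 2.22 for *Dppa4*, 0.28 for *Sf3a1* and 4.84 for *Cdc5l*. IVF replicate 2 stood apart from its group with levels of −3.34 for *Mos* and 2.34 for *Tbc1d2*. IVF replicate 4 stood apart from its group with levels of −2.17 for *Taf7l* and −7.02 for *Has2*. IVF replicate 5 stood apart from its group with levels of −3.38 for *Gabrb2*, 3.24 for *1600012H06Rik*, −2.97 for *Astl* and −0.13 for *Taf8*. *Eif1ad* is listed for 2 probes, and the value of *Zfhx3* belongs to a probe that was not lost. The causes were not tested.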

How the results depend on the processing

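The counts of risen, fallen, appeared and lost probes stayed within 1.5 times their values under all 27 alternatives. Risen probes ranged from 7043 with median centring to 9931 at an adjusted p under 0.05, and fallen probes from 9020 with quantile normalization to 12376 with median centring. The median difference over all probes was −0.28 with quantile normalization, −0.08 with normexp and −1.56 with median centring, against −0.87. Leaving out each array in turn gave 8797 to 9041 risen, 10271 to 10473 fallen, 1918 to 1963 appeared and 23 lost probes.

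Of 1242 counts of list members under the alternatives, 61 moved by more than 1.5 times. Of 4967 values of named probes, 17 changed sign, 38 no longer passed and 9 newly passed. With quantile normalization the differences became 1.07 for the other probe of *Tm9sf3*, 0.21 for *Bmp15*, 0.45 for *Zp2*, 0.49 for *Tcl1*, 0.23 for *Rpl32*, 0.14 for *Rpl34* and 0.20 for *Bex4*. With normexp they became 1.12, 0.18, 0.37, 0.45, 0.31, 0.22 and 0.29 in the same order. *Bex4* was at 0.01 without OC replicate 2 and 0.22 without IVF replicate 4, and ran from −0.76 to 0.22 over the arrays left out in turn. *Dicer1* ran from −1.29 to 0.043, the latter without OC replicate 6. The values of *Bex4* and *Dicer1* above 0 did not pass the test. The cause was not tested.

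The replicate numbers share no stated source. Arrays of OC and IVF with the same number correlated in their deviations at −0.03 to 0.08, so the numbers do not pair the samples. With the replicate block 8206 probes rose, 9602 fell, 1995 appeared and 23 were lost.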
